A study of Mus musculus with 13 samples.

Results

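In all, 7 genes of the p53 pathway and of the Cdkn2a cell cycle brake were followed across 13 single-colour mouse arrays of cardiac reprogramming: Cdkn1a, Mdm2, Ccng1, Phlda3, Zmat3, Cdkn2a and Trp63. The 7 members were the genes whose symbol in the probe-to-gene table is one of these names, out of 16390 genes with a probe. Each had 1 probe, and Zmat3 was found under its older symbol Wig1. The probes of 6 genes were well above the blank spots on all 13 arrays, and that of Trp63 on 11.

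The arrays held cardiomyocyte-like cells made from fibroblasts by transduced factors (induced cardiomyocytes, iCMs), 2 kinds of fibroblast and 2 hearts, with 1 array per condition. GMT (in this field Gata4, Mef2c and Tbx5) gave 6 iCM arrays, taken at 2 and 4 weeks from serum medium (FBS), serum-free medium (SF) and medium with FGF2, FGF10 and VEGF (FFV), and the GMT cells were sorted for GFP driven by the cardiac alpha-myosin promoter. GMTMM (GMT with Mesp1 and Myocd) gave 2 iCM arrays made from tail-tip fibroblasts (TTFs), in FFV and in FBS, and MT (Mef2c and Tbx5) gave 1 iCM array in FFV, whose starting fibroblasts the labels do not name. The references were mouse embryonic fibroblasts (MEFs), TTFs, and a heart from embryonic day 12 (E12) and one from postnatal day 1 (P1). No strain, donor age of the fibroblasts or weeks in culture of the GMTMM and MT cells is given in the sources used here. Every sample is bulk RNA, so fewer cells of a type and less RNA per cell cannot be told apart.

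The transcription factor p53 is activated by DNA damage, oncogenic signals and culture stress, and switches on genes that stop the cell cycle, repair DNA or start apoptosis. Cdkn1a encodes p21, an inhibitor of cyclin-dependent kinases and the best known mediator of p53 arrest. Mdm2 encodes the ubiquitin ligase that marks p53 for destruction and is itself a p53 target, which closes a feedback loop. Ccng1 (cyclin G1), Phlda3 (a repressor of AKT at the membrane) and Zmat3 (an RNA-binding protein) are further p53 targets. Cdkn2a encodes from 2 promoters both p16Ink4a, which inhibits CDK4 and CDK6, and p19Arf, which inhibits Mdm2, and it accumulates as fibroblasts are passaged. Trp63 encodes p63, the p53 relative that directs basal epithelium and binds similar DNA sites. In fibroblasts the p53 pathway and the Cdkn2a locus are known as barriers to reprogramming to pluripotency.

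RefSeq promoters of build GRCm38.p6 were available for 5 of the 7 genes. The 250 bases before the transcript start are shown where they held a p53 half-site match, and for both starts of Cdkn2a. Whether a match bears on the levels was not tested. Capitals mark matches to the p53 half-site consensus, a motif of 10 letters that reads the same on both strands, which 7.13% of 32851 such promoter windows held. In Cdkn1a at chr17:29090729-29090978 (plus strand) there were 2 half-sites, 73 and 51 bases before the start and 12 bases apart. Such a pair, with at most 13 bases between, was present in 0.0639% of the windows. The 10 bases directly after the half-site at 51 bases miss the consensus only at their first letter, so they stay in lower case.

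Cdkn1a upstream start: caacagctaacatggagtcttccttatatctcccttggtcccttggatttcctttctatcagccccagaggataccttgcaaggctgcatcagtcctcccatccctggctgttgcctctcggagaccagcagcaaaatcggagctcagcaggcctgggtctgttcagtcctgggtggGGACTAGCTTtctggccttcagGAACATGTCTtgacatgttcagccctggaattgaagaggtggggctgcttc

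In Mdm2 at chr10:117710759-117711008 (minus strand) there was 1 half-site, 186 bases before the start.

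Mdm2: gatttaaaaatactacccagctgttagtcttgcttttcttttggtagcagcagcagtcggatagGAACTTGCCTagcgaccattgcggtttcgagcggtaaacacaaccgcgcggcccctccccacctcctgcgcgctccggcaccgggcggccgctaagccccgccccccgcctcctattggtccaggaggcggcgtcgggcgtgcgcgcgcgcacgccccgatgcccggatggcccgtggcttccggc

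In Ccng1 at chr11:40755287-40755536 (minus strand) there was 1 half-site, 185 bases before the start.

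Ccng1: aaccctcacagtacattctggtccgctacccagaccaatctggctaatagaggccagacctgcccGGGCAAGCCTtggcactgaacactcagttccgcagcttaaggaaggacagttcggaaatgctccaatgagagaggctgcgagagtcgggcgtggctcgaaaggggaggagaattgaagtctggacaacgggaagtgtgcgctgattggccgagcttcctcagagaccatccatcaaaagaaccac

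The Phlda3 window and the second Cdkn1a window held no match. Cdkn2a had 2 windows with no p53 half-site, shown because 1 symbol covers both transcripts and which of them the probe reads is not stated. The upstream window at chr4:89294620-89294869 (minus strand) serves the first exon of p19Arf, and its capitals mark TTTCCCGC, an E2F-type motif searched on both strands and held by 0.895% of the windows. The downstream window at chr4:89282193-89282442 (minus strand) serves the first exon of p16Ink4a. A match is a run of letters and not evidence of binding.

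Cdkn2a upstream start: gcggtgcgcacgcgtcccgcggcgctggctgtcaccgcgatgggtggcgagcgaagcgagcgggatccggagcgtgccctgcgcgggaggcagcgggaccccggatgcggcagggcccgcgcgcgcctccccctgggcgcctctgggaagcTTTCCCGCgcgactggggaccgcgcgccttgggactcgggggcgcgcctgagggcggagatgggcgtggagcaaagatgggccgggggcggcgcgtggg

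Cdkn2a downstream start: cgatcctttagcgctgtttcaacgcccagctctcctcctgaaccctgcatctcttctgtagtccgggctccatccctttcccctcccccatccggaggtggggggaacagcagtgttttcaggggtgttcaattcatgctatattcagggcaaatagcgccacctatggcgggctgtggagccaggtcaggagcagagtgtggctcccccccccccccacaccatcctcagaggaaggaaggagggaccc

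Spot medians were corrected with normexp and an offset of 50, put on the log2 scale and quantile normalized, so a level below is a normalized log2 intensity whose lowest value over all probes was 5.65. Between 78.4% and 91.5% of probes were well above the blank spots (above the mean of the blanks plus 2 SD) on each array. The arrays came from 3 series of array identifiers: one held the 6 GMT arrays and the E12 heart, another MEFs and the P1 heart, and the last TTFs, both GMTMM arrays and MT. Summed endothelial markers (7 genes) were at 11.29 and 12.24 in the hearts and from 8.65 to 9.03 on the other 11 arrays. Summed cardiomyocyte markers (10 genes) were at 16.85 and 17.25 in the hearts, from 15.98 to 16.57 in GMT iCMs, 13.61 in MT iCMs, 9.997 (FBS) and 11.18 (FFV) in GMTMM iCMs, and 9.21 and 9.34 in the fibroblasts. In GMTMM cells in FBS the cardiac myosins Myh6 and Myh7, titin (Ttn) and Ryr2 were not well above the blanks. These defining markers of the labelled cell type were thus not detected there by this rule. Of all arrays this one had the fewest probes well above the blanks (78.4%) and the widest spread of blanks (SD 1.59). In FFV only Ryr2 fell short.

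Of the 7 genes, 5 were higher in iCMs than in hearts, by between 3.77 and 23.8 times, and the same 5 did not differ from fibroblasts past the threshold. Cdkn1a stood furthest apart. Its levels in GMT iCMs at 2 weeks were 11.68 in FBS, 11.77 in SF and 11.39 in FFV, and at 4 weeks 11.08, 11.83 and 11.77. GMTMM iCMs were at 11.44 in FBS and 11.52 in FFV, MT iCMs at 10.62, MEFs at 10.13, TTFs at 11.47, and the E12 and P1 hearts at 6.78 and 6.99. All 9 iCM arrays and both fibroblast arrays lay far above both hearts, with no overlap. How many of all genes separate from both hearts in this way was not counted, here or for the genes below. The iCM mean was 11.45 ± 0.39 (SD, n = 9) and the heart mean 6.88 ± 0.15 (SD, n = 2), a log2 difference of 4.57 ± 0.34 (SE, limma adjusted p = 3.17e-06).

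**Figure D1:**
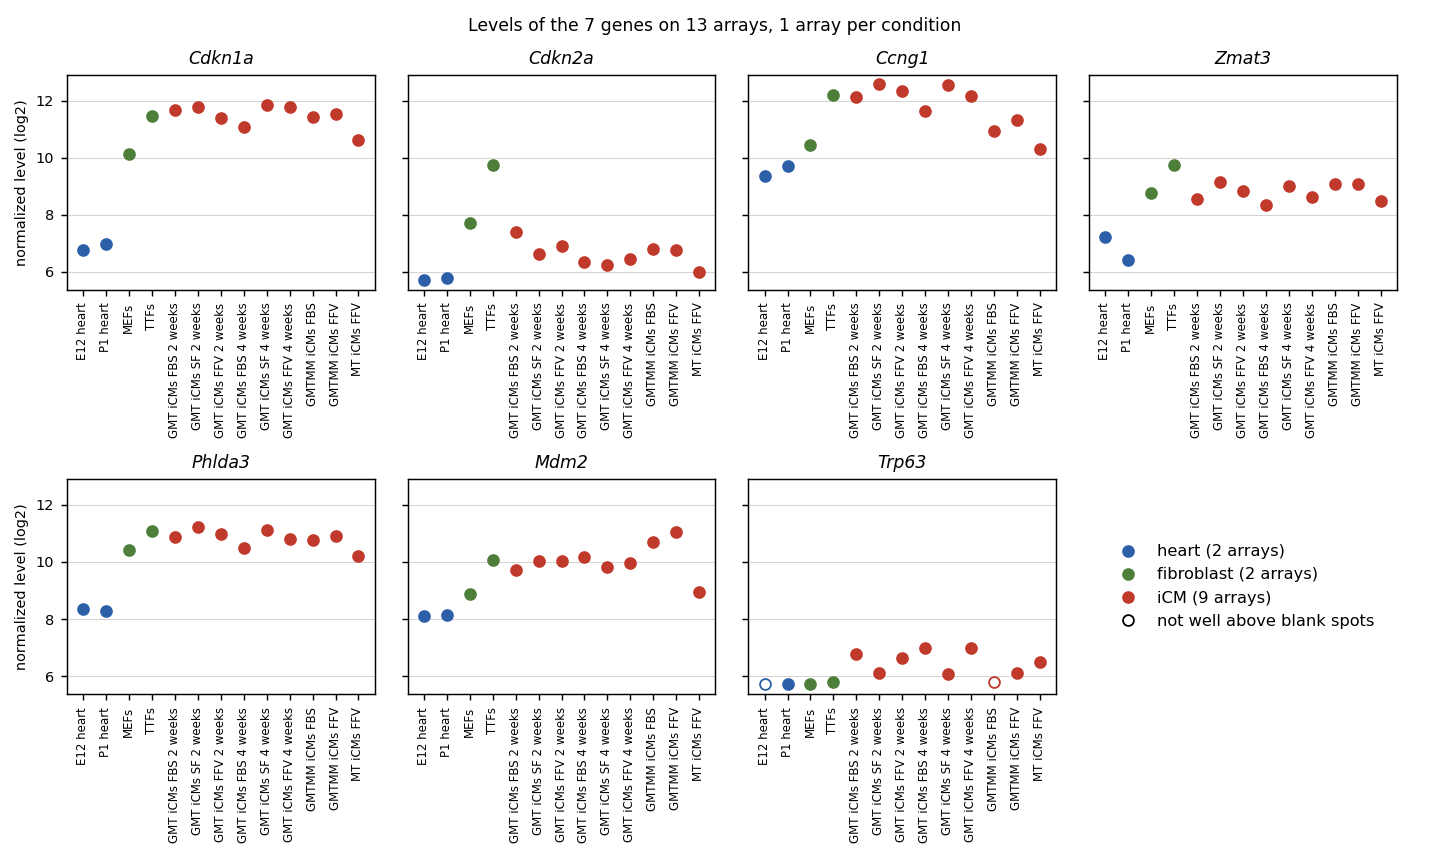
Normalized log2 level (y axis) of each of the 7 genes on each of the 13 arrays (x axis), with hearts in blue, fibroblasts in green and iCMs in red, and open circles where the probe was not well above the blank spots. Both hearts lie below all other arrays for Cdkn1a, Phlda3, Zmat3, Mdm2 and Ccng1, whereas for Cdkn2a the fibroblasts lie above all iCMs, TTFs highest at 9.74.

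Mdm2, the negative regulator of p53, had levels of 9.73, 10.05 and 10.03 in GMT iCMs at 2 weeks (FBS, SF and FFV) and 10.17, 9.83 and 9.95 at 4 weeks. The highest levels were in GMTMM iCMs, 10.70 in FBS and 11.03 in FFV, and the lowest iCM level was 8.96 in MT iCMs. MEFs were at 8.87, TTFs at 10.06 and the hearts at 8.12 (E12) and 8.15 (P1). All iCM arrays were above both hearts, and Mdm2 rose in iCMs by 1.91 ± 0.42 (log2, SE, adjusted p = 0.0121). The spot stood unevenly above its local surround. Spot and surround medians were 1064 and 893 in GMT iCMs (SF, 2 weeks) and 1217 and 1235 in TTFs. They were 190 and 157 in the E12 heart, 164 and 136 in the P1 heart, but 2404 and 302 in GMTMM iCMs in FFV. With the surround subtracted the difference was 1.92 and was not called (limma adjusted p = 0.149).

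Ccng1, whose product binds protein phosphatase subunits and Mdm2, was between 11.63 and 12.57 in the 6 GMT iCM arrays, at 10.92 and 11.31 in GMTMM iCMs (FBS and FFV) and at 10.29 in MT iCMs. MEFs were at 10.44, TTFs at 12.21 and the hearts at 9.34 (E12) and 9.71 (P1). Again no iCM array overlapped the hearts, but the MT array was the nearest to them. Ccng1 rose in iCMs by 2.24 ± 0.58 (log2, SE, adjusted p = 0.025).

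Phlda3 was between 10.20 (MT) and 11.24 (GMT in SF at 2 weeks) over the 9 iCM arrays, against 8.36 and 8.29 in the E12 and P1 hearts, and rose by 2.50 ± 0.25 (log2, SE, adjusted p = 4.56e-05). Zmat3 was between 8.33 and 9.15 in iCMs, against 7.21 in the E12 heart and 6.41 in the P1 heart, and rose by 1.99 ± 0.29 (adjusted p = 0.000894). Neither gene overlapped between iCMs and hearts. The 5 calls stand beside a background of 5.62% of 15670 genes that rose in iCMs against hearts in the same fit. Cdkn2a (0.85 ± 0.42, adjusted p = 0.217) and Trp63 (0.71 ± 0.27, adjusted p = 0.112) did not pass.

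The spread in this fit is that between conditions of a class, since no condition was repeated, and leaving out either heart array left 3 calls (Cdkn1a, Phlda3 and Zmat3), with adjusted p for Mdm2 of 0.0697 without the E12 and 0.0794 without the P1 heart, and for Ccng1 of 0.15 and 0.105. Within the array series that holds both GMT iCMs and the E12 heart, the same 5 genes were at least 2-fold higher in all 6 GMT arrays, as were 3.26% of genes. The mean fold there was 28.0 for Cdkn1a, 7.39 for Ccng1, 5.88 for Phlda3, 3.57 for Mdm2 and 2.91 for Zmat3. Against the P1 heart, on another series, all 5 again met this rule, as did 3.03% of genes. MT iCMs, in FFV and on another series, were nearer the E12 heart than the GMT mean for all 5, at log2 differences of 3.84 for Cdkn1a, 1.84 for Phlda3, 1.27 for Zmat3, 0.95 for Ccng1 and 0.84 for Mdm2. GMTMM iCMs, on the series of the MT array, were also nearer for Cdkn1a (4.70), Phlda3 (2.48) and Ccng1 (1.775). They were farther for Zmat3 (1.87) and Mdm2 (2.74). The part of factors, medium and series was not tested.

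Of these 5 genes, 3 were also higher in cultured fibroblasts than in hearts, as was Cdkn2a, in a contrast added after the values were seen. Cdkn1a was higher by 3.92 ± 0.44 (log2, SE, adjusted p = 0.000223), Zmat3 by 2.44 ± 0.37 (adjusted p = 0.00191), Phlda3 by 2.43 ± 0.32 (adjusted p = 0.000719) and Cdkn2a by 2.96 ± 0.54 (adjusted p = 0.00572). These 4 calls compare with 3.2% of genes that rose. Ccng1 (1.80 ± 0.74, adjusted p = 0.178) and Mdm2 (1.33 ± 0.54, adjusted p = 0.174) did not pass, and Trp63 differed by 0.04 ± 0.35 (adjusted p = 0.969). Ccng1 passed with array series as a term (2.29, adjusted p = 0.0432), and with GMT iCMs alone as the iCM class both Ccng1 (adjusted p = 0.033) and Mdm2 (adjusted p = 0.0187) passed, while Phlda3 was lost with the local surround subtracted (1.93, adjusted p = 0.0533). Leaving out TTFs or MEFs gave 1.94 or 3.98 for Cdkn2a and 3.25 or 4.59 for Cdkn1a, all still called. Both contrasts share the 2 heart arrays. All iCM and fibroblast arrays are labelled as cultured cells and both hearts as tissue, so class and culture cannot be told apart here, and the part of the endothelial cells seen in the hearts was not tested.

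**Figure D2:**
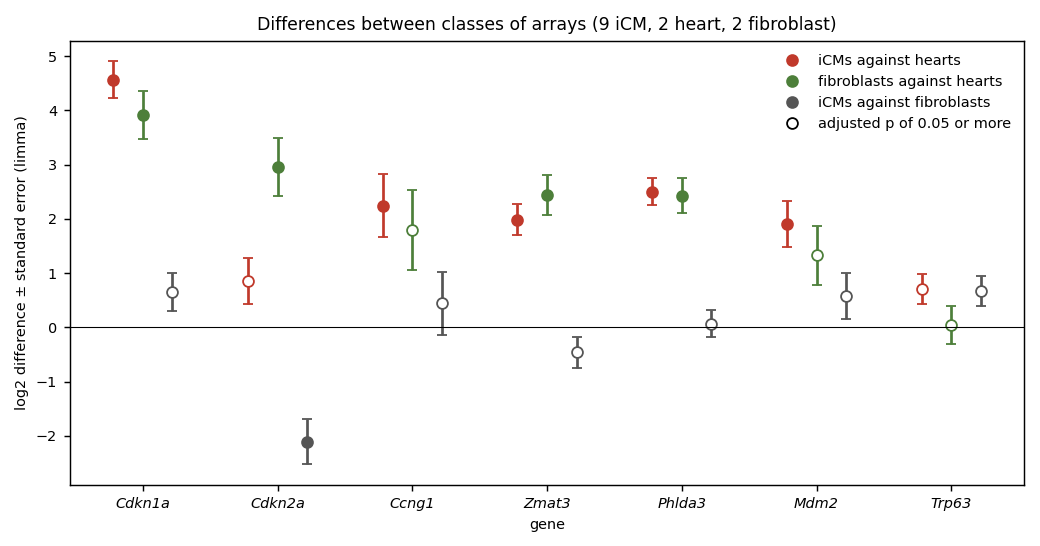
Log2 difference with its standard error (y axis) for each gene (x axis) between classes of arrays, filled where limma's adjusted p was under 0.05. The iCM and fibroblast differences from the hearts lie close together for Cdkn1a, Phlda3 and Zmat3, and Cdkn2a is filled in the comparisons with fibroblasts, at 2.96 against hearts and -2.11 for iCMs.

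A wider list of textbook p53 targets was read in the same fit. Of 36 tested genes, 14 rose in iCMs against hearts and none fell, beside 5.62% of all genes that rose, with a median log2 difference of 0.54 beside 0.01 for all genes. The 14 include the 5 described above, and of the other 31 targets 9 rose, with a median of 0.30 over the 31. Ephx1 (epoxide hydrolase) rose by 3.83, Dcxr (xylulose reductase) by 3.13 and Btg2 (an antiproliferative protein) by 2.83 on the log2 scale. Fas, the death receptor, rose by 2.36 and Pmaip1, the BH3-only protein Noxa, by 2.08. The targets Gdf15 (0.04 ± 0.03), Ddit4 (-0.43 ± 0.28) and Plk2 (-0.34 ± 0.43) did not pass, so the list did not move as one.

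Against fibroblasts, 1 of the 36 targets rose and 1 fell, beside 0.179% of genes that rose and 1.23% that fell. Btg2 rose by 2.22 ± 0.49 (log2, SE, adjusted p = 0.0441), and Ddit4, a stress-induced inhibitor of mTOR, fell by 1.48 (adjusted p = 0.024). In fibroblasts against hearts 8 of the 36 targets rose and none fell, beside 3.2% of all genes that rose. Of the 31 targets other than the members, 5 rose there. Among 15 measured members of a list of 17 p53 family genes and regulators, 2 fell in iCMs against hearts, beside 6.39% of genes that fell. These were Chek1, the checkpoint kinase, by 1.15 and Trp53bp1, which binds at DNA breaks, by 0.83 on the log2 scale, and the p53 inhibitor Mdm4 differed by -0.02 ± 0.06 (adjusted p = 0.875).

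**Figure D3:**
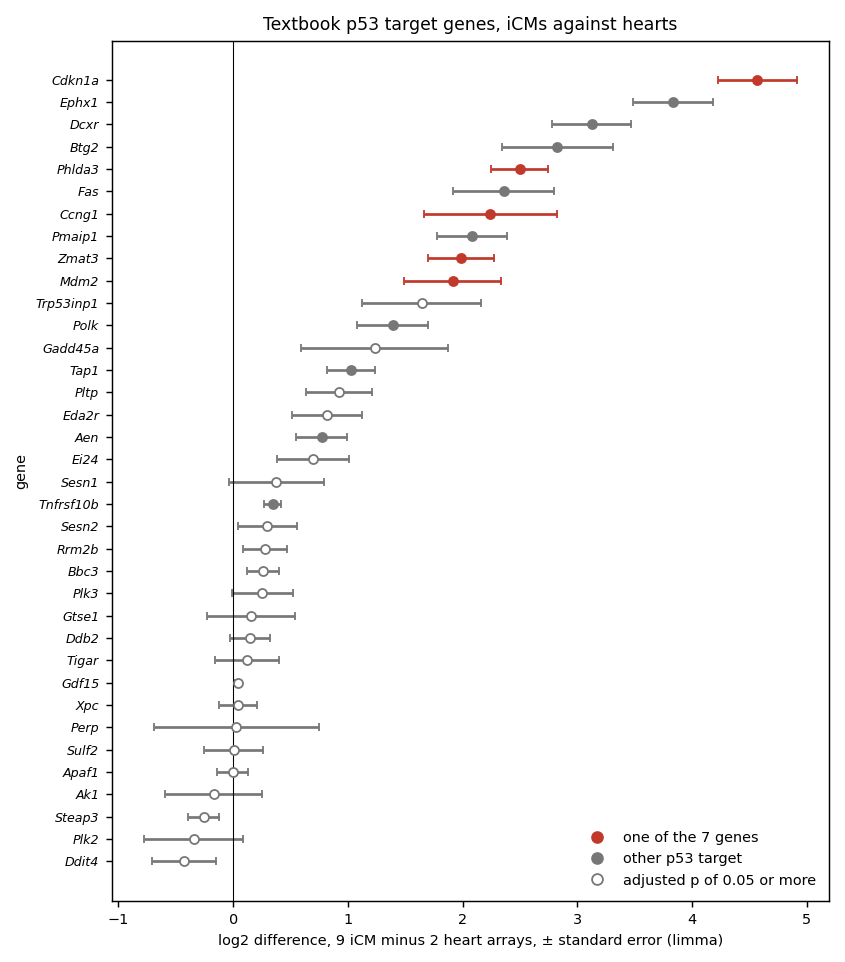
Log2 difference of 9 iCM arrays minus 2 heart arrays with its standard error (x axis) for 36 textbook p53 target genes (y axis), filled where the adjusted p was under 0.05 and red for 5 of the 7 genes. Of the 36, 14 are filled and all 14 lie to the right of 0, Cdkn1a furthest at 4.57.

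Cdkn2a had another order of levels: it was highest in fibroblasts and lower on every iCM array. TTFs were at 9.74 and MEFs at 7.70. GMT iCMs at 2 weeks were at 7.41 in FBS, 6.62 in SF and 6.91 in FFV, and at 4 weeks at 6.33, 6.26 and 6.44. GMTMM iCMs were at 6.79 in FBS and 6.78 in FFV, MT iCMs at 5.999, and the E12 and P1 hearts at 5.73 and 5.79. No iCM array reached either fibroblast array, and none fell to the level of the hearts. The share of all genes with this order of levels was not counted.

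Cdkn2a fell in iCMs against fibroblasts by 2.11 ± 0.42 (log2, SE, adjusted p = 0.0316), the only one of the 7 genes called in a comparison in which 1.23% of 15670 genes fell. The other 6 differed by between -0.46 (Zmat3, adjusted p = 0.507) and 0.67 (Trp63, adjusted p = 0.273). The Cdkn2a call rested on the TTFs: without them the difference was -1.09 (adjusted p = 0.257), and without the MEFs -3.12 (adjusted p = 0.0028). It was also lost on the deposited value table (-3.19, adjusted p = 0.122). The offset of 50 compresses dim genes. On the deposited scale Cdkn2a was at 676 in TTFs and 101 in MEFs, between 17.9 and 77.4 in GMT iCMs, 38.9 and 42.6 in GMTMM iCMs, 6.85 in MT iCMs, and 1.19 and 2.84 in the hearts.

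The GMTMM cells give the comparison with a stated cell of origin, on 1 array series. Cdkn2a was 7.73-fold lower than in TTFs, with log2 differences of -2.96 in FFV and -2.95 in FBS, and was the only one of the 7 genes at least 2-fold lower on both arrays, as were 0.914% of genes. With 1 TTF array there is no test. Ccng1 differed by -0.90 and -1.28, Zmat3 by -0.65 and -0.64, Mdm2 by 0.98 and 0.64, and Cdkn1a by 0.05 and -0.03 (FFV and FBS). Summed fibroblast markers (10 genes) were at 16.09 in TTFs and at 15.51 and 15.30 in the GMTMM arrays. Summed macrophage markers (9 genes) were at 12.24 in TTFs, 12.61 in GMTMM iCMs in FBS and 9.41 in FFV. The part of these markers in the Cdkn2a difference was not tested.

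Against MEFs, the 6 GMT iCM arrays differed in Cdkn2a by -1.44 to -0.30 on the log2 scale. In the same comparison 9 of 10 fibroblast markers (median log2 difference -3.45) and 7 of 9 macrophage markers (median -3.85) were at least 2-fold lower on all 6 arrays, as were 3.01% of genes, and their part in the Cdkn2a difference was not tested. Ccng1 was at least 2-fold higher in all 6 arrays, by 3.46-fold on average, and was the only one of the 7 genes to meet the rule, which 2.02% of genes met. Cdkn1a was higher by 0.95 to 1.70 and Mdm2 by 0.86 to 1.29 on the log2 scale, each missing 2-fold on at least 1 array. On the deposited value table, 4 of the 7 genes met the rule (Cdkn1a, Ccng1, Mdm2 and Trp63). MT iCMs were at -1.70 from MEFs for Cdkn2a, at 0.49 for Cdkn1a and within 0.30 for Ccng1, Zmat3, Phlda3 and Mdm2. GMT iCMs and MEFs lie on different array series, and the part of the series was not tested in these differences.

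The fibroblasts themselves differed. TTFs were above MEFs by 2.04 in Cdkn2a, 1.77 in Ccng1, 1.34 in Cdkn1a and 1.18 in Mdm2 on the log2 scale, and by 0.95 in Zmat3 and 0.65 in Phlda3. These are single arrays of different series, with no test.

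**Figure D4:**
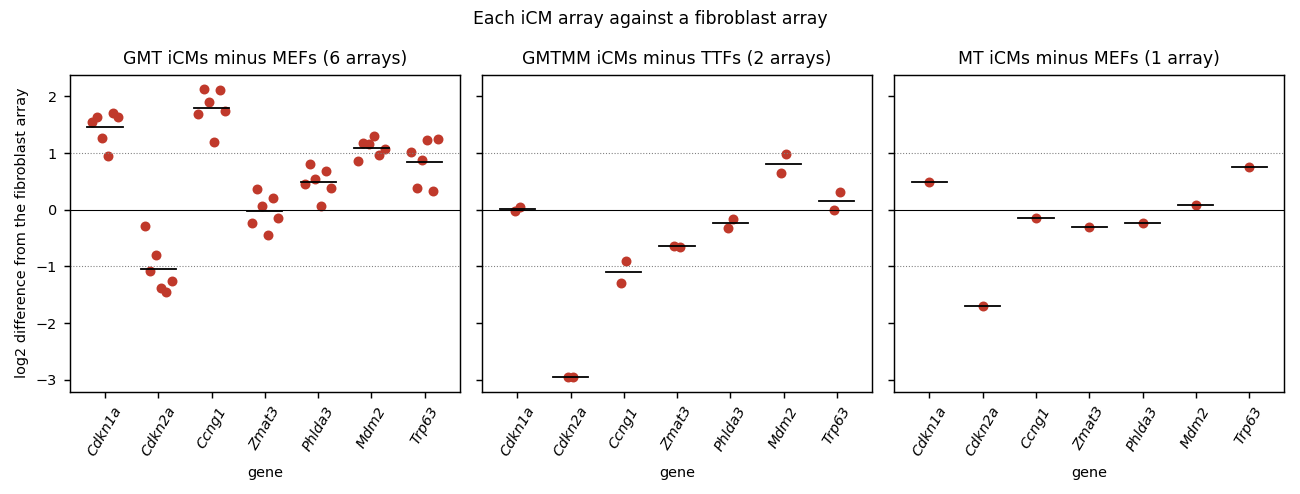
Log2 difference of each iCM array from a fibroblast array (y axis) for the 7 genes (x axis), with a bar at the mean and dotted lines at 2-fold. Cdkn2a lies below 0 in all 3 panels, at -2.95 on average in GMTMM iCMs minus TTFs, while Ccng1 lies above 0 against MEFs for GMT iCMs and below 0 against TTFs for GMTMM iCMs.

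Genes around the Cdkn2a brake were read from lists of its upstream regulators, of the cyclin-dependent kinase inhibitors and of the E2F targets it restrains. Of 15 measured regulators of the locus, 2 were at least 2-fold higher in both GMTMM arrays than in TTFs and none was lower, beside 1.04% of genes that were higher. These were Id1, an inhibitor of helix-loop-helix factors, by 1.63 and Ezh2, the Polycomb methyltransferase, by 1.15 on the log2 scale, while Bmi1, a Polycomb protein known to repress the locus, differed by -0.30. Against MEFs, 2 of the 15 were lower and none higher in GMT iCMs (3.01% of genes were lower), and 2 were higher and none lower in MT iCMs (4.78% of genes were higher). No regulator passed in iCMs against fibroblasts (limma), and 5 of 15 had an unadjusted p under 0.05, as had 2333 of 15670 genes.

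Of 24 measured E2F target and mitosis genes, 11 were at least 2-fold higher in both GMTMM arrays than in TTFs and none was lower, beside 1.04% of all genes that were higher, with a median log2 difference of 1.30. Birc5 (survivin) was higher by 2.82, Mki67 (the Ki-67 antigen) by 2.36, Aurka (Aurora A kinase) by 2.04 and Top2a (topoisomerase II) by 1.91. Against MEFs the list lay the other way: 7 of the 24 were lower and none higher in GMT iCMs (median -1.04), and likewise 7 lower and none higher in MT iCMs (median -0.85, beside 4.49% of all genes that were lower). TTFs themselves were below MEFs in 14 of the 24 (median -1.11, beside 2.8% of all genes). Cdkn2a was lower than in the fibroblast reference in all 3 kinds of iCMs. The reference array differed between these comparisons, and a link between Cdkn2a and these genes was not tested. In iCMs as a class against fibroblasts none of the 24 was called by limma (0 at an unadjusted p under 0.05, beside 2333 of 15670 genes, median -0.20). Against hearts, 7 of the 24 fell in iCMs and none rose, beside 6.39% of all genes that fell, with a median of -1.53. Ccna2 (cyclin A2) fell by 2.22 on the log2 scale, while Top2a (-2.30), Mki67 (-2.29) and Cdk1 (-2.25) did not pass (adjusted p = 0.0593, 0.0527 and 0.0867). That count was 1 on the deposited value table, with median scaling and without the E12 heart, and 23 with GMT iCMs alone as the iCM class.

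Of the 5 measured cyclin-dependent kinase inhibitors, Cdkn1a rose and Cdkn1c fell in iCMs against hearts, beside 5.62% of all genes that rose and 6.39% that fell. Cdkn1c encodes the imprinted inhibitor p57, and it fell by 3.84 ± 0.87 (log2, SE, adjusted p = 0.0136). Cdkn1b (-0.30 ± 0.21) and Cdkn2c (-0.35 ± 0.24) did not pass. Among 16 measured cyclins, CDKs and RB proteins of the G1 phase, Ccnd2 (cyclin D2) rose against hearts by 1.60, Cdk2 fell by 1.42 and the RB relative Rbl1 fell by 1.28 on the log2 scale. That is 1 of 16 that rose and 2 that fell, beside the same shares of all genes. None of the 16 was called against fibroblasts by limma, and 0 had an unadjusted p under 0.05, beside 2333 of 15670 genes. Of 16 measured secreted factors that are linked to senescence, 2 fell against fibroblasts and none rose, beside 1.23% of all genes that fell. Igfbp3, which binds insulin-like growth factors, differed by -2.94 ± 0.47 (log2, SE, adjusted p = 0.00962) and Tnfrsf11b (osteoprotegerin) by -2.13 ± 0.34 (adjusted p = 0.0102). In GMTMM iCMs against TTFs 3 of the 16 were higher and 3 lower, with a median of 0.35.

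Trp63 was near the floor outside iCMs. Its levels were 5.71 in the E12 heart (not well above the blanks), 5.74 in the P1 heart, 5.75 in MEFs and 5.78 in TTFs. GMT iCMs were at 6.76 in FBS, 6.12 in SF and 6.63 in FFV at 2 weeks, and at 6.98, 6.08 and 6.99 at 4 weeks. MT iCMs were at 6.49, and GMTMM iCMs at 6.10 in FFV and 5.78 in FBS, the latter not well above the blanks. All GMT arrays, the MT array and the GMTMM array in FFV thus lay above the hearts and fibroblasts, while GMTMM iCMs in FBS were level with TTFs. The SF arrays were the lowest of the GMT arrays.

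On the deposited scale Trp63 was between 11.7 and 56.4 in GMT iCMs, 25.2 in MT iCMs, at most 1.84 in the fibroblasts and 1.18 in the P1 heart. GMTMM iCMs were at 9.999 in FFV and 1.81 in FBS. The GMT mean was at least 1.82-fold above the E12 heart, the lowest signal well above the blanks standing for the heart. Near the blanks the size of a difference is set by the background correction: the mean difference of GMT iCMs from the E12 heart ran from 0.43 with the surround subtracted to 4.29 with a floor. With GMT iCMs alone as the iCM class, Trp63 was called against hearts (adjusted p = 0.0256) and fibroblasts (adjusted p = 0.0367), and over 14 alternatives it was called in 2 and 1 of them. Of 11 epithelial markers 8 were measured. Their summed level was 11.74 to 12.19 in GMT iCMs, 9.04 to 9.21 in the fibroblasts, GMTMM and MT iCMs, and 10.42 and 11.01 in the hearts. Grhl2 was not well above the blanks on any array. In iCMs against fibroblasts Dsp (desmoplakin, also a heart muscle gene) differed by 3.95 ± 1.73 (adjusted p = 0.313), and Krt14, Epcam and Cdh1 by -0.14, 0.09 and -0.03. The part of these markers in the Trp63 level was not tested.

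Between single pairs of iCM arrays that differ in medium or in time, log2 differences of the 7 genes ran from -1.08 to 0.91. Against FBS, SF gave no call among the 7 genes in the fit of 8 iCM arrays (limma, 0.0459% of 15246 genes called). Of the 7, 4 had an unadjusted p under 0.05, as had 1984 of the 15246 genes. Ccng1 was higher in SF by 0.44 at 2 weeks and 0.91 at 4 weeks, Zmat3 by 0.60 and 0.66, and Phlda3 by 0.35 and 0.61 on the log2 scale. Trp63 was lower, with differences of -0.64 and -0.89. Each of these 4 kept its direction in both pairs of arrays. The fit that singled them out drew its SF values from these same pairs, so this is no separate check. How many of all genes keep their direction in both pairs was not counted. Cdkn1a (0.09 and 0.75) was also higher in both, and Mdm2 (0.32 and -0.34) was not.

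Without the 2 GMTMM arrays, which include no SF culture, the same SF contrast called 11% of 15037 genes, and among the 7 genes it called Ccng1 (0.68 ± 0.15, adjusted p = 0.0429), Zmat3 (0.63 ± 0.11, adjusted p = 0.0215) and Trp63 (-0.77 ± 0.11, adjusted p = 0.0137). That fit has 1 array per condition and medium crossed with time. Summed fibroblast markers were at 12.55 and 12.14 in SF and at 12.82 and 13.64 in FBS (2 and 4 weeks), and summed macrophage markers at 9.45 and 9.41 in SF and at 9.87 and 11.32 in FBS. Their part in these differences was not tested.

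FFV against FBS gave no call among the 7 genes (limma, 0.0394% of genes called). Of the 7, 1 had an unadjusted p under 0.05, as had 1635 of all 15246 genes. The 1 member was Ccng1, higher in FFV in all 3 pairs, by 0.22 and 0.54 in GMT iCMs at 2 and 4 weeks and by 0.39 in GMTMM iCMs. Cdkn1a differed by -0.28, 0.69 and 0.08 in the same pairs.

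At 4 weeks against 2 weeks, limma called 0% of 15037 genes and none of the 7, with 1322 genes at an unadjusted p under 0.05. Cdkn2a was the only one of the 7 among these, and it was lower at 4 weeks in all 3 media, with log2 differences of -1.08 in FBS, -0.36 in SF and -0.47 in FFV (mean -0.64 ± 0.14, SE, adjusted p = 0.55). Ccng1, Phlda3 and Zmat3 were also lower at 4 weeks in each medium, with Ccng1 in FBS furthest at -0.50. Cdkn1a (-0.60, 0.06 and 0.38) and Mdm2 (0.44, -0.22 and -0.09) changed sign between media.

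**Figure D5:**
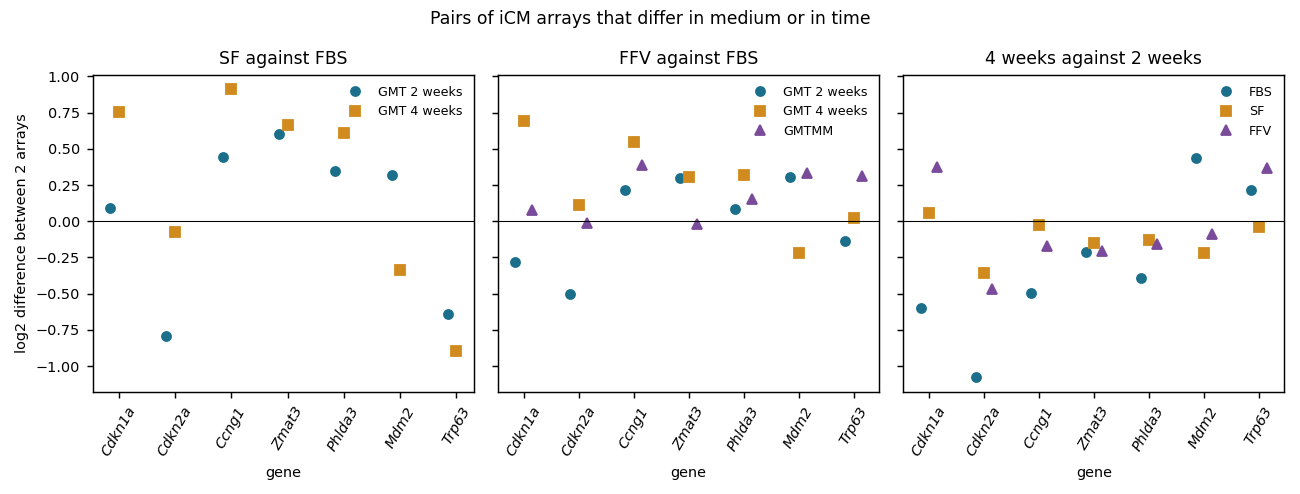
Log2 difference between 2 iCM arrays (y axis) for the 7 genes (x axis), by medium (left and middle) and by time (right), each symbol a pair. Ccng1, Zmat3 and Phlda3 lie above 0 and Trp63 below 0 in both SF pairs, and Cdkn2a lies below 0 in all 3 pairs of 4 against 2 weeks.

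Genes with the most similar levels were ranked by Pearson's r over the 13 arrays among 2057 named genes that spanned at least 4-fold, as a description without a test, since the arrays share series and classes. Nearest to Cdkn1a were Phlda3 (r = 0.98), Ephx1 (0.97), Cpt1c, a brain-type carnitine palmitoyltransferase relative (0.96), Map6, a microtubule-stabilizing protein (0.95), and Pmm1, a phosphomannomutase (0.95). For Cdkn1a these values follow the gap between the 2 hearts and the other arrays. Ephx1, for example, was at 6.35 and 6.88 in the E12 and P1 hearts and between 9.59 and 10.97 elsewhere. Nearest to Cdkn2a were Kera (keratocan, 0.91), Dmrt2 (a DM-domain transcription factor, 0.90), Pla2g4a (cytosolic phospholipase A2, 0.89), Hpgd (15-hydroxyprostaglandin dehydrogenase, 0.87) and Ahr (the aryl hydrocarbon receptor, 0.86). Each of these was highest in TTFs, as Cdkn2a was, and the ranking was not repeated without that array. Dmrt2, for example, was at 9.17 in TTFs, at 7.16 and 6.91 in GMTMM iCMs, at 6.94 in MEFs and at most at 6.32 on the other arrays.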

How the data were processed

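RNA of 13 samples was amplified, labelled with Cy5 and hybridised to 1 array each, per the labels' protocols. The deposited scanner files hold spot intensity values (medians at 635 nm, 3 gains brought onto 1 scale, per the file headers), neither background-corrected nor normalized. The deposited value table holds the authors' processed intensity values, empty for dim probes and with a median of 25 in each column by a method the labels and headers do not record. The number of arrays limits the precision.

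Spot medians were corrected with normexp (offset 50), put on the log2 scale and quantile normalized with limma 3.58.1 in R 4.3.3. Spots the scanner marked as poor were left out. The brightest of several probes stood for a gene; 3947 older symbols were updated. Genes well above the blanks (mean plus 2 SD of 2736 blank spots) on at least 2 arrays of a fit were tested with lmFit and eBayes with a trend, two-sided, Benjamini-Hochberg adjusted over all genes tested, at 0.05. The class fit took 9 iCM, 2 heart and 2 fibroblast arrays, the medium fit 8 iCM arrays with context as a covariate, and the time fit 6 GMT arrays with medium as a covariate. Comparisons with 1 reference array count genes at least 2-fold apart on every array. Nothing in the labels says whether samples came from separate cultures, so p-values measure only the spread between these samples.

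The members and gene lists were chosen with earlier results of these data known. Named genes were the 7 members, up to 4 per list with the largest absolute differences in the comparison described, and the 5 most like Cdkn1a and Cdkn2a; Pmaip1, Fas, Gdf15, Plk2, Mdm4, Bmi1, Cdkn1b, Cdkn2c and single epithelial markers were named after their values were seen. Alternatives were other background corrections and scaling, the deposited table, no filter, no trend, array series as a term, and arrays left out. Motifs and figures used Python 3.11.15 with pandas 2.3.3 and matplotlib 3.10.9.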

Additional observations from a re-analysis of the deposited data

Results flagged for a closer look

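For 3 genes the sign of a comparison differed between 2 kinds of iCMs on every array, and in none was the difference itself tested. For Ccng1 and Phlda3 the fibroblast reference differed as well. Ccng1 was higher than in MEFs on all 6 GMT iCM arrays (mean log2 difference 1.79) and lower than in TTFs on both GMTMM iCM arrays (-1.09), a gap of 2.88 on the log2 scale. The GMT iCMs and MEFs come from different array series and the GMTMM iCMs and TTFs from the same one. TTFs were themselves above MEFs by 1.77 in Ccng1. Both GMTMM arrays (11.31 in FFV, 10.92 in FBS) also lay above MEFs (10.44), the direction seen in GMT iCMs.

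Phlda3 was higher than in MEFs on all 6 GMT arrays (0.49) and lower than in TTFs on both GMTMM arrays (-0.24), a gap of 0.73. TTFs were above MEFs by 0.65 in Phlda3. Both GMTMM arrays (10.92 in FFV, 10.77 in FBS) again lay above MEFs (10.43). Zmat3 was higher in FFV than in FBS in both GMT pairs and differed by -0.02 in the GMTMM pair, a gap of 0.32. For none of the 7 genes did the highest or lowest of the 9 iCM arrays, or of the 6 GMT arrays, stand apart from the rest by Dixon's criterion.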

How the results depend on the processing

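Of the 5 genes called in iCMs against hearts, Cdkn1a, Phlda3 and Zmat3 passed under all 14 alternatives and Ccng1 and Mdm2 under 11 of them. The count was 3 with the local surround subtracted and 3 to 5 with a heart or fibroblast array left out. Over all genes it was 1882, and 626 with the surround subtracted, 3620 with GMT iCMs alone and 1100 (no P1 heart) to 1911 (no MEFs) with an array left out. The p53 targets that rose numbered 6 with the surround subtracted and 8 to 15 with an array left out (8 without the P1 and 9 without the E12 heart), and the E2F and mitosis genes that fell 1 to 9 with an array left out, 1 (median scaling, the deposited table, no E12 heart), 3 (a floor after blank subtraction, the surround subtracted) and 23 (GMT iCMs alone). For the 2 dim genes, a floor after blank subtraction gave calls against hearts: Cdkn2a 3.96 (adjusted p = 0.00463) and Trp63 3.73 (adjusted p = 0.023). In iCMs against fibroblasts the count was 0 with the floor, the surround subtracted, the deposited table or no TTFs, and 2 with GMT iCMs alone; over all genes it was 221, and 75, 88 and 93 for the first 3, 101 (no MEFs) to 293 (no TTFs) with an array left out and 2954 with GMT iCMs alone. Between leaving out MEFs and leaving out TTFs, values there ran from -0.0154 to 1.32 for Cdkn1a, -0.44 to 1.33 for Ccng1, -0.93 to 0.0147 for Zmat3, -0.26 to 0.39 for Phlda3 and -0.0069 to 1.18 for Mdm2, so each changed sign; with array series as a term Ccng1 (-0.32) and Phlda3 (-0.20) did too. For FFV against FBS 6 genes were called in all, and 11 with an offset of 16, 16 with the floor, 621 without GMTMM and 0 with the surround subtracted, the deposited table, no trend or without either GMT time; Cdkn1a turned to -0.10 without 4 weeks, Cdkn2a to 0.0496 without 2 weeks and Trp63 to -0.0577 without GMTMM. For SF against FBS the 7 became 21, 36, 1653 and 0 in the same order, and Mdm2 turned to -0.0383 (surround), -0.20 (no 2 weeks) and -0.0089 (no GMTMM); 3 of the members were called without GMTMM. For 4 against 2 weeks 7 genes were called without SF, and without FBS Cdkn1a turned to 0.22 and Mdm2 to -0.15. For fibroblasts against hearts 1042 genes were called, and 349 with the surround subtracted, 2139 with the series as a term, 2735 with GMT iCMs alone and 684 (no TTFs) to 1327 (no E12 heart) with an array left out; Trp63 turned to -0.0449 with median scaling and was 0 on the deposited table. Genes at least 2-fold apart on every GMT array rose with the floor and the deposited table from 1073 to 2472 and 2141 (E12), from 1098 to 2536 and 2334 (P1) and from 761 to 1862 and 1582 (MEFs), and were 551 (E12) and 506 (MEFs) with the surround subtracted; the members among those against MEFs were 2 and 4. For GMTMM iCMs against TTFs 291 genes became 475 (offset 16), 1037 (floor) and 896 (deposited table). With the surround subtracted 2 members passed there and 5 E2F and mitosis genes were higher; the second member was Mdm2 at 4.40, whose spot in TTFs read 1217 beside a surround of 1235. The cause of the other changes was not tested. Medium was fitted within context and time within medium; the labels give no replicate number to block on. For levels near the blanks (Trp63 in hearts, fibroblasts and GMTMM iCMs, Cdkn2a in hearts) the size of a difference depends on the background correction.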
